A study of Mus musculus with 4 samples.

Results

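The 39 mouse genes described here encode the integrins and laminins. They were chosen by name from the 26809 gene entries used. The rule took every gene whose symbol begins with Itga or Itgb and every laminin chain gene (Lama, Lamb and Lamc). It left out Itgb1bp1, Itgb1bp2 and Itgb3bp, which are named for binding to integrins. It gave 28 integrin symbols and 11 laminin symbols. The integrin symbols include Itgbl1, which names a secreted integrin beta-like protein and no receptor subunit. No measured value entered the rule.

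The RNA came from C57BL/6 mouse embryonic fibroblasts on day 5 of reprogramming. All 4 cultures had received the reprogramming factors Klf4, Oct4, Sox2 and Myc on the Sendai virus vector SeVdp(KOSMaB) and had been selected with 2 µg/mL blasticidin S. The transgene was Osr2, which encodes a zinc-finger transcription factor, or, in the control, the fluorescent protein Kusabira Orange, and each kind of cell was grown without SB431542 or with it at 10 µM. SB431542 inhibits the type I receptor kinases of TGF-β, activin and Nodal. Each group is 1 library, so no difference has a replicate check and no test was made. Unless a sentence says otherwise, values of the 4 libraries stand in the order control, control with SB431542, Osr2, Osr2 with SB431542.

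Integrins are receptors of an alpha and a beta chain that span the cell membrane and tie the matrix outside to the actin or keratin skeleton inside. The alpha chain largely sets the ligand. Some alpha chains bind collagen, some bind laminin, some bind the RGD tripeptide of fibronectin and vitronectin, and a leukocyte group binds counter-receptors on other cells. Laminins are trimers of an alpha, a beta and a gamma chain and form the sheet of basement membranes. Fibroblasts are known for integrins that bind collagen and fibronectin, while early embryonic and epithelial cells lay down laminin with the alpha chain of Lama1. In reprogramming, fibroblasts lose mesenchymal features and take on epithelial ones.

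The libraries differ in depth and in scale. Whole reads could be recovered from the deposited TPM (transcripts per 10⁶ transcripts), and gave 18284584, 13360670, 14438399 and 1652503 reads, of which 48723, 34937, 79058 and 3687 lay on the 39 genes. Levels are given in TPM as deposited. The TPM of all entries with gene names summed to 346607, 453128, 270515 and 96191 and not to 10⁶. Levels as deposited thus share no common scale between libraries. A median gene differed between libraries, so differences are of log2(TPM + 1) after scaling, in which the median ratio of genes to the control library (1.38, 0.575 and 0.121 for the other libraries) was divided out, and are called relative differences. On the log2 scale this takes out a shift of all genes of -0.80 between Osr2 and control, -3.51 between the same cells with SB431542, 0.46 between control cells with and without SB431542 and -2.25 between Osr2 cells with and without it. No entry had fewer reads in a library without SB431542 than in the matching library with it, in 18065 entries of control cells and 16677 of Osr2 cells, so the columns without SB431542 may hold the reads of the treated ones. For this reason a further set of values, called after read subtraction, is given, in which the treated reads were taken from the untreated ones. The Osr2 library with SB431542 stood apart, with 15.1% of its reads from mitochondrial genes against 0.694% to 2.42% in the other 3, and with 0 reads for 198 of 9228 genes expected at 20 or more. Expected reads were those of the control library with SB431542, scaled by total reads and not by the median gene. Osr2 itself was at 0.890, 0.764, 59.1 and 13.7 TPM, as the labels have it.

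The 250 bases upstream of the start site are shown for 4 integrin genes that were higher in Osr2 cells, chosen after their values were seen, from RefSeq (GRCm38.p6). They are the collagen-binding alpha genes Itga11 and Itga1 and the beta genes Itgb1 and Itgb5. Capitals mark CAGAC, the core of the Smad binding box, or GGGCGG, a GC box, on either strand; TGANTCA, the AP-1 motif, was also searched and is in none of them. No motif match overlaps another in the same sequence.
Itga11 upstream, chr9:62677605-62677854, plus strand: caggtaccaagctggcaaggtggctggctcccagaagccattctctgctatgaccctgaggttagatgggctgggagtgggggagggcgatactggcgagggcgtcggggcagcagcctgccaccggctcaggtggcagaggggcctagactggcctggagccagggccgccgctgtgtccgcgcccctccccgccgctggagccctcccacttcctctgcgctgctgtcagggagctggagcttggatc
Itgb5 upstream, chr16:33829415-33829664, plus strand: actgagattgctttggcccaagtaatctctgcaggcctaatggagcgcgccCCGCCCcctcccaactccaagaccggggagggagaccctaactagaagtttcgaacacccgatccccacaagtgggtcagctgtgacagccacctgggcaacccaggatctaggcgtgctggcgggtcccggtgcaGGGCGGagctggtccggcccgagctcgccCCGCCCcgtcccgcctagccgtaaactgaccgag
Itgb1 upstream, chr8:128685404-128685653, plus strand: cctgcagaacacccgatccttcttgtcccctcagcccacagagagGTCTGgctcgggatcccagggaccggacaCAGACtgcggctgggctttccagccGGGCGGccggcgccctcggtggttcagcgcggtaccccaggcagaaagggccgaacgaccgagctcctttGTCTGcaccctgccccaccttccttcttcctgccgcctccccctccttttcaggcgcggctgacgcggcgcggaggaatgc
Itga1 upstream, chr13:115101965-115102214, minus strand: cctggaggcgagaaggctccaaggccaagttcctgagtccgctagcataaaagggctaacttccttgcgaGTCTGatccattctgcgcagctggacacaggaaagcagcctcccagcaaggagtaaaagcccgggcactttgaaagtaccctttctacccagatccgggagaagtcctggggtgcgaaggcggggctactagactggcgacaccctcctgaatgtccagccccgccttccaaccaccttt
Of these 4, Itgb5 held 3 GC boxes, Itgb1 held 3 CAGAC and 1 GC box, Itga1 held 1 CAGAC, and Itga11 held none of the 3 motifs. Over all 32851 upstream windows of the same length, 42.2% held CAGAC, 32.7% held GGGCGG and 6.75% held TGANTCA. Of the 28 such windows of integrin and laminin genes, 16 held CAGAC, 10 held GGGCGG and 1 held TGANTCA. These windows belong to 25 genes, of which 15, 9 and 1 held the motif in at least 1 window.

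Of the 39 genes, 26 were measured, which here means at least 1 TPM in at least 1 library, and these were 18 of the 28 integrin symbols and 8 of the 11 laminin genes. The integrin genes below that level were Itga2, Itga4, Itga10, Itgad, Itgae, Itgal, Itgam, Itgax, Itgb2l and Itgb6, and the laminin genes below it included Lamb3 and Lamc3. The highest level among these 13 was 0.971 TPM, of Itga10 in control cells with SB431542. Itgad and Itgb2l had no read in any library. Itgam and Itgax, alpha chains of macrophage and dendritic cell integrins, had 6 and 4 reads in the Osr2 library and 0 in the other 3, where 0 reads allow up to 3, or 0.164 to 1.82 reads per 10⁶ reads. Exons of Itga4, Itga7, Itga8, Itgav, Itgb4, Lama2, Lama3 and Lamc3 overlap genes on the opposite strand by 9 to 1124 bases, and since the strand setting of the counting is not given, reads of these stretches cannot be told apart. Exons of Itga10 and Itgam share 1739 and 3450 bases with genes on the same strand, so their reads are uncertain. In the control library the order of the integrins began with Itgb1 at 94.4 TPM, Itgb5 at 55.3, Itga5 at 28.1, Itgav at 16.3 and Itgb4 at 9.26, and Lamc1 led the laminins at 107 TPM. In the Osr2 library Itgb1 and Itgb5 still led, at 231 and 199 TPM, Itga11 had moved from place 7 to place 3, and Lamb2 led the laminins at 122 TPM.

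**Figure D1:**
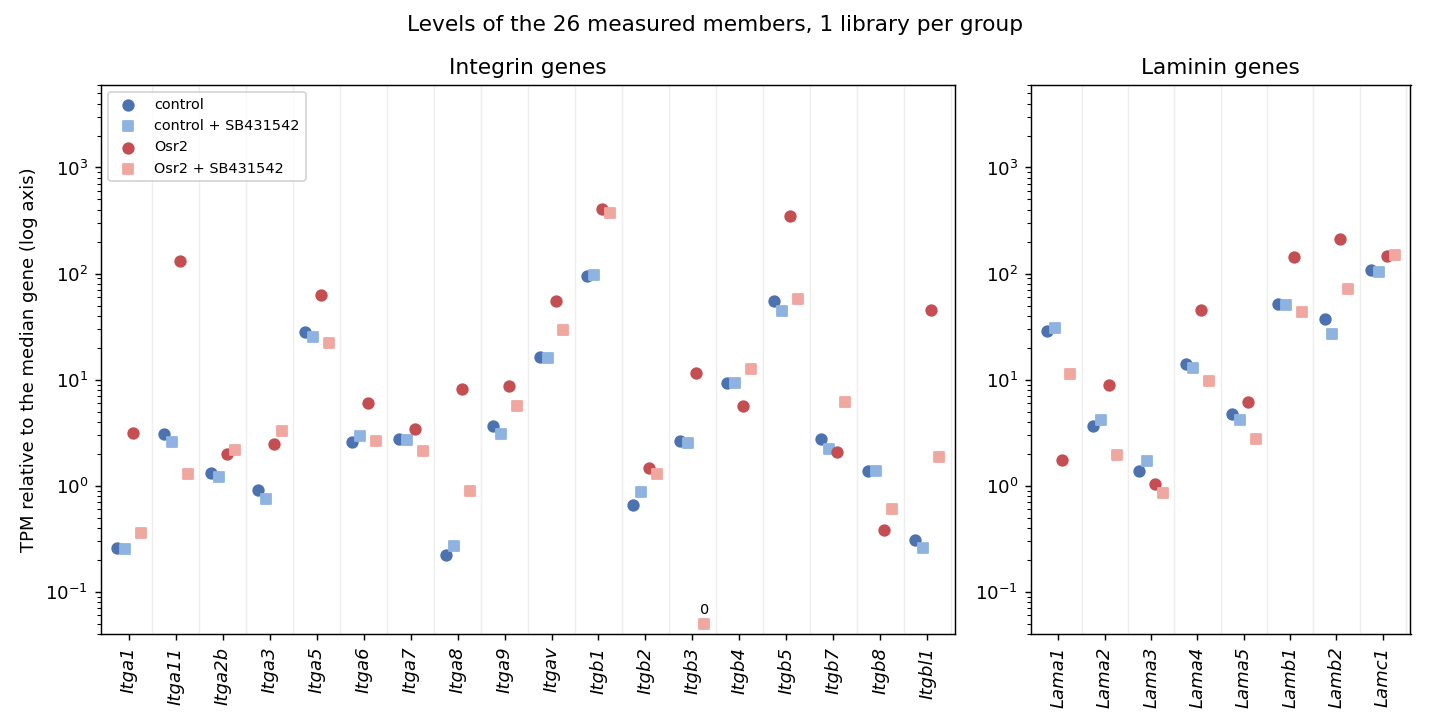
Levels of the 26 measured genes in each library, as TPM relative to the median gene on a log axis, with integrins on the left and laminins on the right. Each point is 1 library; the Osr2 library without SB431542 (dark red) stands far above the control for Itga11, Itgbl1, Itga8 and Itgb5 and far below it for Lama1, and Itgb3 is at 0 in the Osr2 library with SB431542.

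Without SB431542, integrin genes such as Itga11, Itgb5 and Itgb1 were higher in Osr2 cells than in control cells, and Lama1 was much lower. Of the 26 measured genes, 14 were higher by at least 1 on the relative log2 scale, 1 was lower and 11 were neither, while of all 13509 measured genes 16.6% were higher and 11.4% lower. The 14 higher genes are 10 of 18 integrin symbols and 4 of 8 laminin genes, and the lower one is Lama1. The median relative difference was 1.07 over the 26 genes and -0.02 over all measured genes. After read subtraction 13 were higher and 1 lower, against 14.3% and 10.8% of all measured genes. On TPM as deposited 8 were higher and 2 lower, against 7.78% and 30.6%, with a median of 0.35 against -0.64. In bulk RNA, fewer cells of a kind and less RNA per cell cannot be told apart.

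Both measured collagen-binding alpha genes, Itga11 and Itga1, were higher in Osr2 cells. Itga11, the fibroblast collagen receptor chain that pairs with the Itgb1 product (chromosome 9, 62677855 to 62783979, GRCm38.p6), was at 3.09, 3.56, 74.9 and 0.156 TPM, from 231, 145, 5394 and 5 reads. Only the Osr2 library without SB431542 was high, and the other 3 lay below 4 TPM. The relative difference between Osr2 and control was 5.01, and the ratio of levels relative to the median gene was 42.2 (95% counting interval 37.0 to 48.4), or 29.3 (23.7 to 36.7) after read subtraction. Itga1 (chromosome 13, 114958079 to 115101964), a collagen receptor chain that favours basement membrane collagen, showed the same order at a far lower level, with 0.262, 0.345, 1.79 and 0.0430 TPM. Its ratio was 11.9 (9.27 to 15.5). In the annotation, 685 of its exon bases are shared with the same-strand gene Gm49395, so its reads are uncertain. Itga2 and Itga10, the other collagen-binding chains, stayed below 1 TPM in every library and differed by 0.14 and 0.47. Itga2 lies 25979 bases from Itga1. Itga11 made up 69.2% of the summed TPM of the 4 collagen-binding genes in control cells and 96.3% in Osr2 cells. Intervals and limits on reads cover counting error only.

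Of the 4 RGD-binding alpha genes, 3 were higher in Osr2 cells, or 2 after read subtraction. Itga8, whose product binds nephronectin and fibronectin, was at 0.223, 0.376, 4.74 and 0.108 TPM, from 24, 22, 490 and 5 reads, and differed by 2.92. Its ratio was 36.9 (24.5 to 58.2), or 113 (31.2 to 939) after read subtraction, which left 2 reads in the control. Itgav, the alpha chain shared by integrins that bind vitronectin and release latent TGF-β, was at 16.3, 22.2, 31.8 and 3.53 TPM and differed by 1.71, a ratio of 3.41 (3.24 to 3.57). Itga5, the fibronectin receptor chain and the most abundant alpha gene of control cells, was at 28.1, 34.5, 36.1 and 2.66 TPM. It differed by 1.13, but by 0.73 after read subtraction. Itga2b, the alpha chain of the platelet fibrinogen receptor, was at 1.32, 1.66, 1.14 and 0.264 TPM and differed by 0.36. Of 8 megakaryocyte and platelet markers, 2 were measured.

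The laminin-binding alpha genes were low throughout and none passed a difference of 1. Itga6, which pairs with the Itgb1 or Itgb4 product, was at 2.56, 4.03, 3.45 and 0.319 TPM and differed by 0.98, or by 1.25 after read subtraction. Itga7, known from muscle, was at 2.74, 3.72, 1.99 and 0.257 TPM and differed by 0.26. Itga3, known from epithelia, was at 0.913, 1.04, 1.42 and 0.392 TPM and differed by 0.86. The 3 genes together came to 6.21 TPM in control and 6.86 in Osr2 cells, or 6.21 and 11.9 relative to the median gene, while the 4 collagen-binding genes went from 4.46 to 77.8 TPM. The balance of collagen-binding over laminin-binding transcripts thus differed between the libraries on any scaling, since both sums come from the same library. Itga9, whose product binds tenascin and VCAM1, was at 3.68, 4.27, 4.99 and 0.686 TPM and differed by 1.05, or by 0.50 after read subtraction. Its relative Itga4, at 0.579 TPM in control cells, differed by 0.63.

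Among beta genes, Itgb1, Itgb5 and Itgb3 were higher in Osr2 cells and the other 4 measured genes were not. Itgb1, the partner of most alpha chains (chromosome 8, 128685654 to 128733579), was at 94.4, 134, 231 and 45.0 TPM. It differed by 2.08, a ratio of 4.26 (4.13 to 4.39). Itgb5, a partner of the Itgav product in vitronectin receptors (chromosome 16, 33829665 to 33949338), was at 55.3, 60.7, 199 and 7.02 TPM, and its ratio was 6.27 (6.02 to 6.54), or 3.98 (3.74 to 4.23) after read subtraction. Itgb3, the other vitronectin receptor chain, was at 2.66, 3.52, 6.63 and 0 TPM and differed by 1.78.

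The beta genes of epithelia and of leukocytes did not reach a difference of 1 in size. Itgb4, the hemidesmosome chain that binds laminin with the Itga6 product, was at 9.26, 12.9, 3.28 and 1.53 TPM and differed by -0.61, which did not reach the size counted. Its share of all beta chain TPM, which no scaling between libraries can move, was 5.56% (5.22 to 5.92) in control and 0.742% (0.665 to 0.827) in Osr2 cells. Itgb8, a chain that with the Itgav product activates latent TGF-β, was at 1.38, 1.90, 0.219 and 0.0723 TPM. It differed by -0.78 with the pseudocount of 1, and its level was 3.61-fold lower (2.51 to 5.34). Itgb7, a leukocyte chain, was at 2.77, 3.09, 1.18 and 0.750 TPM and differed by -0.30. After read subtraction it differed by -0.88 and was 2.85-fold lower (1.77 to 4.62). Itgb2, the common beta chain of leukocyte integrins, was at 0.652, 1.20, 0.841 and 0.157 TPM and differed by 0.58. Without the pseudocount its ratio was 2.24 (1.34 to 3.80), and read subtraction left 0 reads in the control.

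Itgbl1, the integrin beta-like gene, was at 0.308, 0.357, 26.2 and 0.227 TPM, from 19, 12, 1557 and 6 reads. As for Itga11, only the Osr2 library without SB431542 was high. Its relative difference of 5.16 was the largest of the 26, and its ratio was 148 (94.6 to 247), or 104 (50.2 to 258) after read subtraction.

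**Figure D2:**
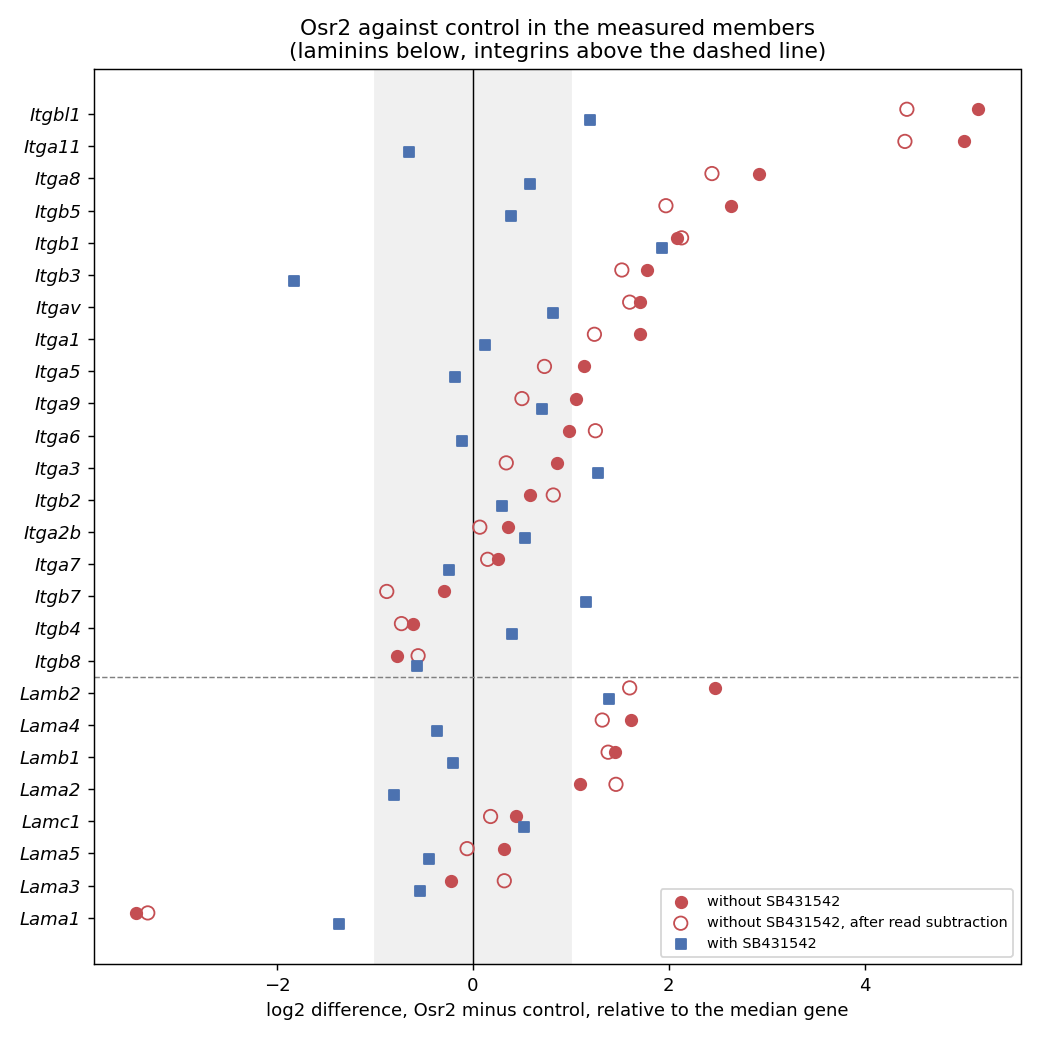
Relative log2 differences between Osr2 and control for the 26 measured genes, without SB431542 (filled circles), without it after read subtraction (open circles) and with it (squares). The grey band marks sizes below 1; 14 filled circles lie to its right and Lama1, at -3.44, is alone on its left, while 5 squares lie to its right and Itgb3 and Lama1 to its left.

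The laminin alpha genes split. Lama1, the alpha chain of early embryonic basement membranes (chromosome 17, 67697127 to 67822645), was at 28.9, 42.1, 1.01 and 1.35 TPM, from 4074, 3241, 137 and 82 reads. Relative to the median gene these levels were 28.9, 30.6, 1.76 and 11.2. The Osr2 library with SB431542 thus lay between the other Osr2 library and the controls. It differed by -3.44 without SB431542 and was 16.4-fold lower (13.9 to 19.6), or 32.4-fold lower (24.6 to 43.4) after read subtraction. Lama4, the alpha chain of mesenchymal and vascular basement membranes, was at 14.0, 17.9, 25.8 and 1.18 TPM and differed by 1.61, a ratio of 3.21 (3.05 to 3.37). Lama2, the chain of muscle and nerve basement membranes, was at 3.66, 5.73, 5.13 and 0.235 TPM and differed by 1.09. Its ratio was 2.44 (2.23 to 2.67), or 4.24 (3.53 to 5.14) after read subtraction. Lama5, widespread in epithelia, was at 4.75, 5.77, 3.55 and 0.337 TPM and differed by 0.32. Lama3, a chain of the laminin of skin, was at 1.39, 2.35, 0.604 and 0.104 TPM and differed by -0.22, but by 0.32 after read subtraction, where its ratio was 2.31 (1.36 to 4.15). Lama4 and Lama2 were thus higher, Lama1 lower and Lama3 and Lama5 neither.

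Shares within a library show the same contrast without any scaling between libraries. Lama1 held 54.8% (53.7 to 55.9) of the TPM of the 5 laminin alpha genes in control cells and 2.79% (2.37 to 3.29) in Osr2 cells. Lama4 held 26.6% (25.7 to 27.5) and 71.5% (70.4 to 72.6). After read subtraction Lama1 held 47.5% and 1.17%, and Lama4 34.5% and 73.0%. The summed TPM of the 5 genes was 52.7 in control and 36.1 in Osr2 cells, or 52.7 and 62.9 relative to the median gene, so it was the make-up more than the sum that differed. Of 8 measured epithelial markers 4 were lower and 1 higher in Osr2 cells, and all 12 fibroblast markers were higher. Of all measured genes 11.4% were lower and 16.6% higher. The part of these markers in the values of Lama1 and Lama4 was not tested.

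Of the laminin beta genes, Lamb2, known from neuromuscular and kidney basement membranes, was at 37.5, 37.2, 122 and 8.72 TPM and differed by 2.47, a ratio of 5.65 (5.43 to 5.88), or 3.08 (2.92 to 3.25) after read subtraction. Lamb1, the widespread beta chain, was at 51.3, 69.6, 81.9 and 5.29 TPM and differed by 1.45. Lamb2 held 42.0% of laminin beta TPM in control and 59.6% in Osr2 cells, but 56.0% and 59.5% after read subtraction, so this change of share depends on how the control reads are taken. Lamb3, a chain of the laminin of skin, stayed below 1 TPM. Lamc1, the gamma chain of nearly all laminins, was at 107, 142, 83.8 and 17.9 TPM and differed by 0.44. It held 99.3%, 99.3%, 99.0% and 96.7% of laminin gamma TPM, and Lamc3 stayed below 1 TPM.

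Within the integrin classes the largest change of share was that of Itga11, from 5.01% (4.42 to 5.67) of the TPM of the 18 alpha genes in control cells to 45.4% (44.6 to 46.3) in Osr2 cells. Itga5 held 45.6% in control and 21.9% in Osr2 cells, where it came after Itga11. Itgav held 26.4% and 19.3%. Among the 9 beta genes, Itgb5 held 33.2% and 45.0%, and Itgb1 held 56.7% and 52.2%. After read subtraction Itgb5 held 46.3% and 46.9%, with overlapping counting intervals of 44.4 to 48.2 and 46.3 to 47.6.

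**Figure D3:**
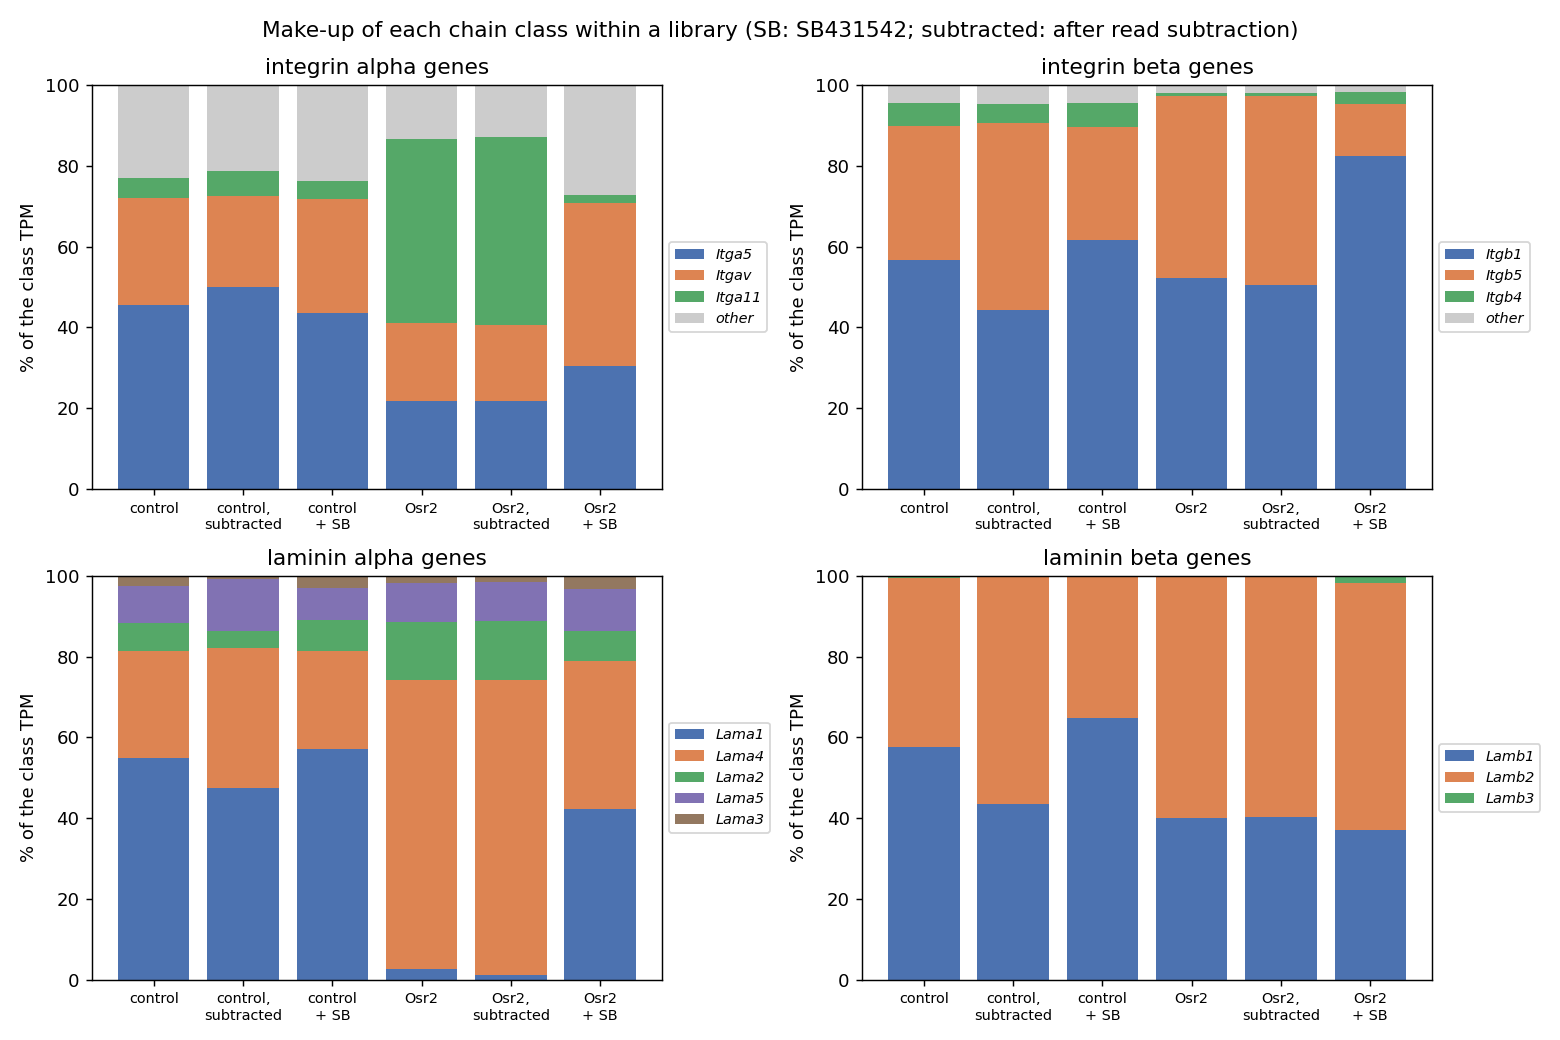
Share of each gene in the summed TPM of its chain class within a library, in percent, for integrin alpha, integrin beta, laminin alpha and laminin beta genes. Bars are single libraries, with the libraries without SB431542 also drawn after read subtraction; Itga11 makes up 45.4% of integrin alpha TPM in Osr2 cells and Lama1 2.79% of laminin alpha TPM, against 5.01% and 54.8% in control cells.

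With SB431542 in both kinds of cell, the direction of most genes depends on the scaling. Relative to the median gene 5 of the 26 genes were higher and 2 lower in Osr2 cells, against 19.9% and 27.9% of all measured genes, with a median of 0.21 against -0.21. On TPM as deposited none was higher and 21 were lower, against 0.348% and 88.1%. After read subtraction, which here changes only the scaling, 2 were higher and 2 lower, against 17.7% and 22.3%. The higher genes relative to the median gene were Itgb1, Lamb2, Itga3, Itgbl1 and Itgb7, and the lower ones were Itgb3 and Lama1.

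Itgb1 had the largest relative difference of these, 1.93, with 4353 and 1150 reads in control and Osr2 cells and a ratio of 3.83 (3.59 to 4.09), though on TPM as deposited it differed by -1.55. Its share of beta chain TPM was 61.7% in control and 82.5% (80.3 to 84.4) in Osr2 cells with SB431542. Lamb2 differed by 1.39, or by -1.98 on TPM as deposited, and held 34.7% and 61.2% (57.6 to 64.7) of laminin beta TPM. Itga3, Itgb7 and Itgbl1 rest on 14, 13 and 6 reads in the Osr2 library. Lama1 differed by -1.37 and was 2.73-fold lower (2.19 to 3.44), with 3241 and 82 reads. Of the genes far higher in Osr2 cells without SB431542, Itga11 differed by -0.65 with it, from 145 and 5 reads, and Itgb5 by 0.39, from 1713 and 156 reads. For Lamc3, which stayed below 1 TPM, 2 and 14 reads gave a ratio of 101 (23.3 to 919.8).

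In control cells the values with and without SB431542 depend on the read subtraction. Since no entry had fewer reads without SB431542 and the treated reads came to 73.1% of the untreated, a gene could hardly be higher with it before subtraction, so the unsubtracted counts say nothing of a lack of response. None was higher or lower relative to the median gene, against 0% and 0.577% of all measured genes, and the median was -0.03. On TPM as deposited none was higher or lower either, against 0% and 0.341% of all measured genes, and the median was 0.30. After read subtraction 1 was lower, against 7.11% higher and 5.46% lower of all measured genes. That gene was Lamb2, with a difference of -1.26 and a level 2.50-fold lower (2.33 to 2.67) with SB431542. Itgb5 came next at -0.95, 1.97-fold lower (1.83 to 2.13), and Lama3 and Lama2 lay at 0.66 and 0.62 on the other side. Without the pseudocount Lama3 was 4.02-fold higher (2.45 to 7.04) and Lama2 1.99-fold higher (1.65 to 2.42). Without subtraction Lamb2 and Itgb5 differed by -0.46 and -0.32.

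In Osr2 cells, relative to the median gene, Itga11, Itgbl1, Itgb5 and Lama4 were much lower with SB431542 than without it. On that scale Itgb1 and Lamc1 differed little, and Lama1 was higher. Of the 26 genes 3 were higher and 11 lower relative to the median gene, against 16.5% and 26.7% of all measured genes, with a median of -0.91 against -0.16. After read subtraction the counts were 3 and 11 again, against 18.1% and 22.6%, and on TPM as deposited they were 0 and 18, against 0.118% and 64.1%. This comparison uses the same untreated Osr2 library as the comparison with control cells, so a high value there enters both.

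Itga11 differed by -5.84, and its level after read subtraction was 106-fold lower (45.5 to 328) with SB431542. The other fold values of this paragraph are also after read subtraction, while the differences are without it. Itgbl1 differed by -4.02 and was 25.5-fold lower (11.7 to 69.6), Itgb5 by -2.56 and 6.18-fold lower (5.28 to 7.29), and Lama4 by -2.09 and 4.75-fold lower (3.85 to 5.93). Itga8, Itga1, Itga5, Itgb3, Lama2, Lamb1 and Lamb2 made up the rest of the 11. Itgb1 differed by -0.11 and was 1.04-fold lower (0.975 to 1.10), and Lamc1 differed by 0.03. On TPM as deposited Itgb1 and Lamc1 differed by -2.33 and -2.16. These abundant chains, the shared partners of integrin alpha chains and of laminin trimers, thus kept their place relative to the median gene while Itga11, Itgb5 and Lama4 did not. Itga11 held 45.4% of integrin alpha TPM without SB431542 and 1.79% (0.747 to 4.21) with it, the latter from 5 reads.

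The 3 higher genes were Lama1, Itgb7 and Itgb4. Lama1 differed by 2.15, or by 0.23 on TPM as deposited, and its level after read subtraction was 15.1-fold higher (10.6 to 21.7) with SB431542. Its share of laminin alpha TPM was 2.79% without and 42.2% (35.7 to 48.9) with SB431542, beside 54.8% and 57.1% in the control libraries. Itgb4 differed by 1.02, or by -0.76 on TPM as deposited, and its share of beta chain TPM was 0.742% and 2.80% (2.20 to 3.55). Itgb7 differed by 1.24, or by -0.32 on TPM as deposited, from 46 and 13 reads. In the same pair of libraries 10 of 12 fibroblast markers were lower, and 3 of 8 measured epithelial markers were higher and 1 lower. Of all measured genes 16.5% were higher and 26.7% lower. The 3 higher epithelial markers, Cdh1, Cldn3 and Krt8, rest on 15, 4 and 9 reads in the treated library, and the lower one, Krt19, on 0. All 12 epithelial markers of the list summed to 18.9 relative TPM without and 22.2 with SB431542. On TPM as deposited, all 12 fibroblast markers and 2 epithelial markers were lower and 0 higher, against 64.1% and 0.118% of all measured genes. Mitochondrial reads went from 2.42% to 15.1%. The part of these markers and reads in the differences was not tested.

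**Figure D4:**
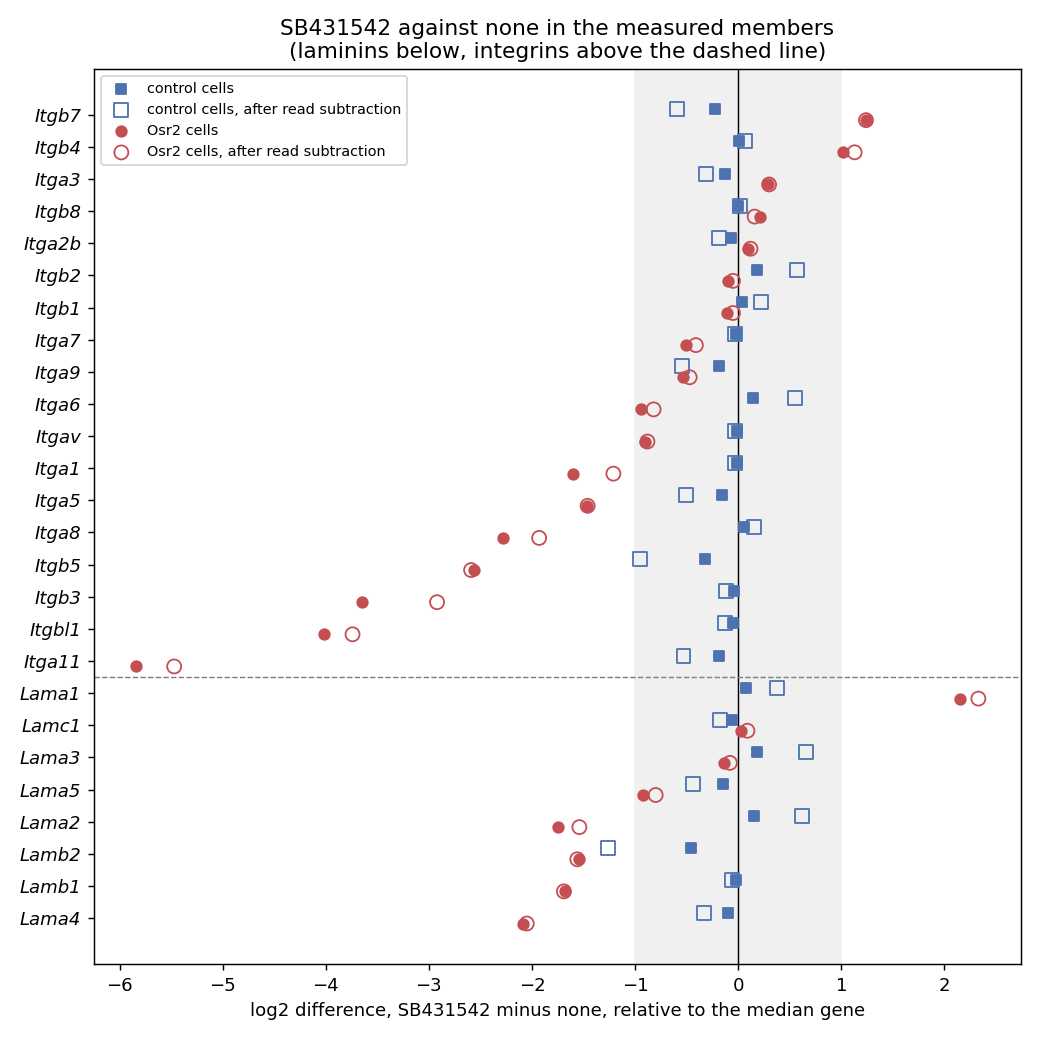
Relative log2 differences between cells with and without SB431542 for the 26 measured genes, in control cells (squares) and Osr2 cells (circles), with open symbols after read subtraction. The grey band marks sizes below 1; all control squares lie in it except Lamb2 after subtraction, at -1.26, while Osr2 circles run from -5.84 for Itga11 to 2.33 for Lama1 after subtraction.

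Genes that work with these receptors and sheets were counted by the same sizes, from lists chosen by function. Of 32 measured genes of the adhesion machinery that integrins assemble inside the cell, 16 were higher and 0 lower in Osr2 than in control cells, with a median of 1.02, or 10 and 1 with a median of 0.63 after read subtraction and 9 and 3 on TPM as deposited. The shares over all measured genes on these scales were 16.6% and 11.4%, 14.3% and 10.8%, and 7.78% and 30.6%. The largest were Lims2 (2.48), Tns3 (2.44), Tns1 (2.44) and Tgfb1i1 (2.36), which encode a PINCH adaptor, a pair of tensins and the paxillin relative Hic-5. Of 19 measured integrin ligands other than laminin, 15 were higher and 0 lower, led by the matrix genes Postn (4.58), Ccn2 (4.25), Thbs1 (4.02) and Col1a2 (4.02), and the median of the list was 2.80. Col1a2 encodes a chain of collagen I, the main ligand of the Itga11 product. Of 20 measured partners of laminin in the basement membrane, 11 were higher and 1 lower, among them the calcium-binding matrix genes Sparc (4.18) and Smoc2 (4.09), the collagen IV chain gene Col4a5 (3.14) and the netrin gene Ntn4 (3.13).

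Of 18 measured laminin receptors other than integrins and hemidesmosome genes, 7 were higher and 0 lower, or 1 and 1 on TPM as deposited, led by the plakin gene Plec (2.50), by Mcam (1.30), and by Dag1 (1.28) and Sspn (1.25) of the dystroglycan complex. Of 15 measured membrane partners of integrins, 6 were higher and 0 lower, or 4 and 1 on TPM as deposited, led by Cav1 (3.06), Thy1 (2.62), Cd63 (2.35) and Plaur (2.13). Of all measured genes 16.6% were higher and 11.4% lower, or 7.78% and 30.6% on TPM as deposited. With SB431542 in both kinds of cell the counts, higher then lower, were 13 and 4 for the adhesion machinery, 10 and 1 for the ligands, 9 and 2 for the basement membrane, 5 and 5 for the other laminin receptors and 4 and 4 for the membrane partners, against 19.9% and 27.9% of all measured genes. On TPM as deposited 30, 12, 15, 15 and 14 genes of these lists were lower and 1, the ligand gene Ccn2, was higher, against 88.1% and 0.348% of all measured genes. Relative to the median gene Ccn2 differed by 6.09, and Postn, also an integrin ligand, differed by -3.16.

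In Osr2 cells with SB431542 against none, where 16.5% of all measured genes were higher and 26.7% lower, 2 genes of the adhesion machinery were higher and 11 lower, 1 ligand was higher and 11 lower, 4 basement membrane partners were higher and 6 lower, 2 other laminin receptors were higher and 6 lower, and 0 membrane partners were higher and 8 lower. Of the 32, 19, 20, 18 and 15 measured genes of these lists, 11, 11, 6, 6 and 8 were thus lower, and the shares of the adhesion machinery, the basement membrane partners and the other laminin receptors lie near that of all measured genes. Without scaling, none was higher and 26, 18, 14, 14 and 15 were lower, against 0.118% and 64.1% of all measured genes. Postn (-7.77), Mcam (-4.92), Smoc2 (-4.51), Cd9 (-3.47) and Flna (-2.98), the filamin gene, had the largest differences of their lists, and Mcam and Smoc2 were listed at 0 in the treated library. Fn1, the fibronectin gene, differed by -3.62. In control cells the ligands had 4 lower and 0 higher, among them Col3a1 (-1.45), Ccn2 (-1.41) and Col1a1 (-1.36), and the other 4 lists had 0 in either direction, against 0% higher and 0.577% lower of all measured genes. After read subtraction 9 ligands, 4 genes of the adhesion machinery, 5 basement membrane partners, 1 other laminin receptor and 2 membrane partners were lower and 1 gene of the adhesion machinery was higher, against 5.46% lower and 7.11% higher of all measured genes. The deposited TPM had 1 ligand lower.

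Markers of other cells that carry integrins were counted beside these values. The 15 leukocyte markers summed to 31.0, 30.4, 147 and 161 TPM relative to the median gene. Without SB431542, 9 of 13 measured were higher in Osr2 than in control cells and 0 lower, against 16.6% and 11.4% of all measured genes. After read subtraction 6 were higher, against 14.3%, and on TPM as deposited 4, against 7.78%. C1qb, a macrophage complement gene, was at 3.15, 3.01, 20.2 and 10.1 TPM as deposited. Between Osr2 cells with and without SB431542 it differed by 1.23 relative to the median gene and by -0.93 on TPM as deposited. In that comparison 2 of the 13 were higher and 2 lower relative to the median gene, against 16.5% and 26.7% of all measured genes. The lower markers were Lyz2, at -4.43 from 448 and 1 reads, and Fcer1g, at -2.14 from 24 and 0 reads. On TPM as deposited 0 were higher and 10 lower, against 0.118% and 64.1%. Ptprc, the common leukocyte gene, stayed at or below 0.0893 TPM in every library. The leukocyte alpha genes Itgal, Itgam, Itgax, Itgad and Itgae were all below 1 TPM, and Itgb2 was at most 1.20 TPM. The 9 endothelial markers summed to 14.5, 15.3, 30.7 and 23.1 relative TPM, with Cdh5 and Emcn at 0 in every library. Most of that sum came from Flt1, at 3.95, 4.53, 12.4 and 2.34 TPM as deposited, and Tek, at 8.41, 13.4, 4.89 and 0.373 TPM as deposited. The part of such cells in the integrin and laminin values was not tested. The 12 fibroblast markers, which check the labelled cell type, summed to 1444, 830.1, 15470.2 and 3969 relative TPM, or 1444, 1144, 8891 and 479 TPM as deposited. Col1a1 alone was at 522, 279.6, 4616 and 284 TPM as deposited. With SB431542 in both kinds of cell, 5 of the 12 were higher and 2 lower in Osr2 cells, against 19.9% and 27.9% of all measured genes. On TPM as deposited 0 were higher and 8 lower, against 0.348% and 88.1%.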

How the data were processed

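RNA was measured in 4 libraries, 1 per group. Per the series design text and the submitters' processing notes, the authors mapped reads to GRCm38.p6 with STAR 2.7.3a, counted them per gene with featureCounts 2.0.0 and computed TPM, and these deposited TPM values were used here. The design text names an Ensembl release 75 annotation, while exon lengths of GENCODE M21 gave whole reads (within 0.001) in 18113 of 18121 entries, including all 37 of the genes described that had reads. The strand setting of the counting is not given in the sources used here.

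Of 27304 entries, 26 with names turned into dates (holding 26 cells that are not numbers) and 469 that share 140 symbols were left out, as were 4 columns of a second table that match no sample. From the TPM, reads, relative TPM (median ratio over the 7867 genes whose mean was 5 TPM or more) and log2(TPM + 1) differences were computed with Python 3.11.15, numpy 2.4.6, pandas 2.3.3 and scipy 1.17.1, and plotted with matplotlib 3.10.9. Ratios compare relative TPM without a pseudocount, with exact 95% intervals from the reads. Intervals on shares use a normal approximation of the logit. With 1 library per group, genes were counted by a difference of at least 1 in size, beside all 13509 measured genes. Read recovery and counting were tested on simulated data. Alternatives were deposited TPM, read subtraction, pseudocounts of 0.1 and 5, a filter at 5 TPM and none, and, chosen after seeing the data, leaving out Itgbl1.

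The genes described and the gene lists were chosen with earlier results of these data known. All measured integrin and laminin genes are described, 1 gene below the measured level is not reported here by name, and of each further list at most the 4 genes with the largest difference per comparison are named. The genes named as cell type markers were picked after their values were seen. TPM steps fix reads only as far as the gene lengths hold, and depth was 1652503 to 18284584 reads.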

Additional observations from a re-analysis of the deposited data

Results flagged for a closer look

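Itgb3, a beta chain of vitronectin and fibrinogen receptors, moved in opposite directions between Osr2 and control cells, with a relative log2 difference of 1.78 without SB431542 and -1.83 with it. The difference between these values was not tested, since each group is 1 library. The gene had 229 and 549 reads in the libraries without SB431542, and 165 and 0 in those with it. In the Osr2 library with SB431542, 20.4 reads were expected, just above the cut of 20. Expected reads were scaled by total reads from the control library with SB431542, while the differences were scaled by the median gene. In that Osr2 library 198 of 9228 genes expected at 20 or more reads had 0. Itgb3 was the only such gene among the 18 integrin and laminin genes so expected.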

How the results depend on the processing

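No paired analysis was possible because each group is 1 library, and no library could be left out for the same reason. On TPM as deposited, the median over the measured genes was 0.35 for Osr2 against control without SB431542 (8 higher, 2 lower), -1.95 with it (0 higher, 21 lower), 0.30 for SB431542 in control cells and -2.00 in Osr2 cells (0 higher, 18 lower), so the medians of Osr2 against control with SB431542 and of SB431542 in control cells turned sign. On that scale 7 single differences of at least 1 in size turned sign (smaller ones, such as Itgav with SB431542, did too): with SB431542, Osr2 against control, Itga3 (-0.55), Itgb1 (-1.55), Itgb7 (-1.22), Itgbl1 (-0.15) and Lamb2 (-1.98), and SB431542 in Osr2 cells, Itgb4 (-0.76) and Itgb7 (-0.32). Read subtraction left 2 higher for Osr2 with SB431542 and 1 lower for SB431542 in control cells, and moved the median in Osr2 cells to -0.81. Without SB431542 the Osr2 median was 1.24 with a pseudocount of 0.1 (2 lower), 0.64 with 5, 1.61 over the 15 genes of at least 5 TPM and 0.47 over all 39. With SB431542 it was 0.39 (4 lower), 0.07 (2 higher, 1 lower) and, over the 15 genes, -0.18 (3 higher). For SB431542 in Osr2 cells it was -1.02, -0.52 (1 higher), -1.54 and, over all 39, -0.20. The cause of these changes was not tested, beyond the other genes counted under the filters. Leaving out Itgbl1 kept all 12 of these counts and medians within their tolerance. Of 104 single differences, 66 on TPM as deposited, 97 after read subtraction, 95 with a pseudocount of 0.1 and 94 with 5 stayed in the same class (higher, lower or neither). Depth limits the Osr2 library with SB431542 most, where most integrin alpha genes rest on fewer than 20 reads.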
